A study of Sus scrofa with 28 samples.

Results

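Solute carriers (SLC) are the membrane proteins that move amino acids, sugars, lactate, metal ions, nucleotides and vitamins into cells and between their compartments. In skeletal muscle they bring in glucose, creatine and amino acids, release lactate after glycolysis, and link the mitochondrion to the cytosol through the SLC25 carriers of the inner membrane. Most do not need ATP directly and follow the gradients of ions or of the solute itself. Their levels were compared here between piglets of the pure Iberian type (IB) and crosses of Duroc boars on Iberian sows (DU×IB), one array per piglet.

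The members were all probe sets whose gene symbol began with SLC followed by a digit, which gave 41 of the 5226 probe sets of the table, for 32 genes. The symbol came from the annotation of the array for 37 of them (28 genes) and from the study's own gene tables for 4, namely SLC22A2, SLC30A7, SLC37A1 and SLC30A9. The first 3 of these stand in the study's list of 271 differential probe sets, which was chosen on these same arrays, so what they show is not independent evidence of their direction. A further probe set assigned to a solute carrier and to a second gene was left out. Grouped by substrate, 6 probe sets belonged to transporters of amino acids and creatine, 6 to sugars and sugar phosphates, 5 to monocarboxylates, organic cations and acetyl-CoA, 1 to inorganic anions, 7 to metal ions, 7 to mitochondrial carriers and 9 to carriers of nucleotide sugars, sulfate donors, choline, vitamins or unknown cargo.

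The loin muscle (Longissimus dorsi) was sampled from 28 males aged 28 days, the time of weaning, 14 IB and 14 DU×IB. Every piglet had an Iberian mother, and the father was Iberian in one genetic type and Duroc in the other. By the study's methods both genetic types came from fewer litters than piglets, and DU×IB from far fewer litters than IB. Littermates are thus among the piglets, most of all in DU×IB, and as the labels do not name the litter they entered every test as independent, so standard errors and p-values may be too small. Values are log2 levels per probe set made by GCRMA, a method that removes background estimated from the probes' base content. It is meant to put arrays on a common distribution, but array medians over the filtered table still ran from 6.01 to 7.05. Differences are DU×IB minus IB on this log2 scale unless a fold is named.

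The arrays fell into a hybridization series of 16 (8 of each genetic type) and one of 12 (6 of each), read from bacterial spike-in probe sets because the labels do not name it, and it was used as a block beside the fit without covariate. The series differed in 80.1% of all probe sets. The array of IB piglet 3 stood apart within its series, with 33.0% of probe sets more than 2-fold from the series median, a median correlation of 0.857 with the other arrays and the lowest value of the 28 piglets for 9 of the 41 solute carriers. The array of IB piglet 1 came next, with 17.1% and 0.885, against 3.25% to 15.7% and 0.899 to 0.950 in the remaining 26. Without both piglets the difference between genetic types moved by over 1.5 times, or turned its sign, for 20 of the 41 solute carriers, 12 of them under 0.2 in size over all piglets, and values without them stand beside the larger ones. Of 16 listed skeletal muscle genes only ATP2A1, the calcium pump of fast fibres, was found in the table, at 12.3 ± 0.592 in IB and 12.2 ± 0.432 in DU×IB (SD, n = 14 each) by its brighter probe set. Fewer cells of a type and less RNA per cell cannot be told apart in whole muscle.

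Without covariate, no solute carrier passed the threshold between the genetic types (limma, Benjamini-Hochberg over all 5226 probe sets, adjusted p under 0.10), against 0.995% of all probe sets. An unadjusted p under 0.05 was reached by 7 of the 41 (17.1%), against 8.50% of all. Outside the study's list it was reached by 4 of 38 (10.5%), against 4.56% of all probe sets outside it. Of the 41, 21 were higher and 20 lower in DU×IB, with a median difference of 0.0048 (0.016 over all probe sets) and a median absolute difference of 0.22 (0.16 over all).

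With the hybridization series as a block, 2 of the 41 passed, against 2.77% of all probe sets. They were the zinc transporter SLC30A7 and the organic cation transporter SLC22A2, and both rose in DU×IB, the direction of 2.07% of all probe sets. All 145 probe sets that passed in this fit belong to the study's list, and none of the 38 solute carriers outside the list did. The median half-width of the 95% interval was 0.51 without covariate and 0.37 with the block. The whole interval lay within a 2-fold difference for 34 and 35 of the 41 probe sets, against 4417 and 4698 of all 5226. These intervals treat littermates as independent and may be too narrow, so they set no firm bound on the differences.

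**Figure D1:**
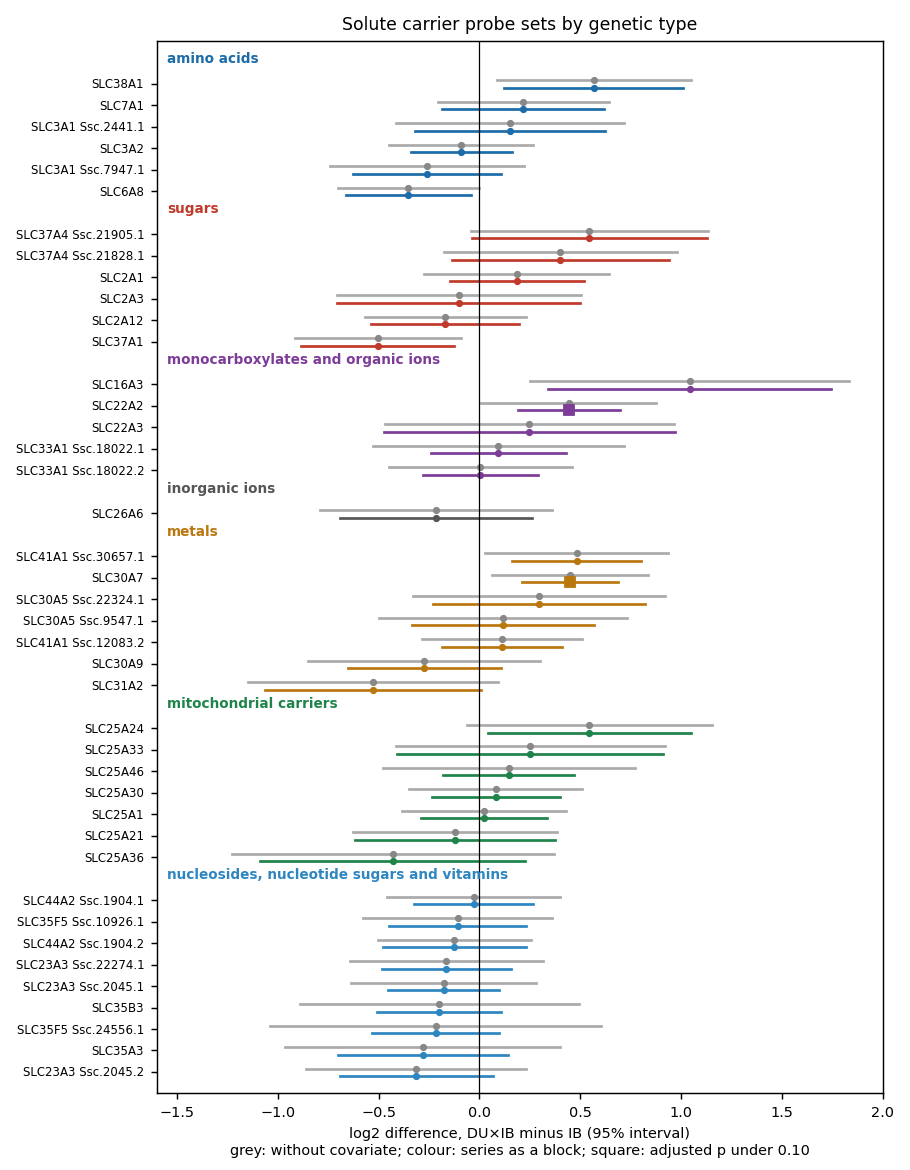
Log2 difference (DU×IB minus IB, x axis) with its 95% interval for each of the 41 solute carrier probe sets, grouped by substrate. Grey is the fit without covariate and colour the fit with the hybridization series as a block. The squares mark SLC22A2 and SLC30A7, which passed the threshold with the block, and the probe sets of nucleotide sugar and vitamin carriers all lie left of 0.

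Among transporters of monocarboxylates and organic ions, all 5 probe sets (4 genes) were higher in DU×IB, with a median difference of 0.25. Only SLC16A3 and SLC22A2 were higher in both series. The largest absolute difference of the 41 belonged to SLC16A3. This gene encodes MCT4, the proton-coupled carrier through which glycolytic fibres release lactate. Its lowest, median and highest levels were 5.35, 8.37 and 10.4 in IB and 7.54, 8.93 and 10.3 in DU×IB. The range of the IB piglets included that of the DU×IB piglets, with 10 of 14 DU×IB piglets above the IB median. The mean was 8.00 ± 1.29 in IB and 9.04 ± 0.888 in DU×IB (SD, n = 14 each), a difference of 1.04 (SE 0.39, 95% interval 0.25 to 1.83, 2.06-fold). It did not pass the threshold in limma without covariate (adjusted p = 0.339) or with the block (adjusted p = 0.132).

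The SLC16A3 difference was 1.19 within the series of 16 and 0.85 within the series of 12. In the blocked fit it passed when IB piglet 4 was left out (adjusted p = 0.0491 in limma) or when IB piglet 10 was (adjusted p = 0.0942), and in none of the other 26 such fits. Without IB piglets 1 and 3 it was 0.98, and 0.90 with the block.

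SLC22A2 (OCT2) carries organic cations such as choline and creatinine across the plasma membrane. Within the series of 16, its lowest, median and highest levels were 6.78, 7.15 and 7.94 in IB and 7.42, 7.70 and 8.13 in DU×IB. Within the series of 12 they were 7.96, 8.28 and 8.40 in IB and 8.24, 8.55 and 8.86 in DU×IB. In both series the DU×IB piglets sat above most IB piglets but overlapped them, and the series itself shifted the gene by -0.91 (16 minus 12). Over all piglets the mean was 7.67 ± 0.602 in IB and 8.11 ± 0.478 in DU×IB, a difference of 0.44 (1.36-fold), with a limma adjusted p of 0.580 without covariate (SE 0.21) and 0.0614 with the block (SE 0.12). The blocked call was lost without IB piglet 8 or DU×IB piglet 2, 4, 5, 12 or 14 (adjusted p 0.101 to 0.112) and without IB piglets 1 and 3 together (0.128).

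Its relative SLC22A3 (OCT3) was at 5.24 ± 1.02 in IB and 5.48 ± 0.962 in DU×IB. The difference of 0.25 was within the spread and had opposite signs in the series, at -0.25 and 0.91. SLC33A1, which brings acetyl-CoA into the endoplasmic reticulum, differed by 0.09 and 0.005 in its probe sets, and the latter value turned to -0.025 after median centring.

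**Figure D2:**
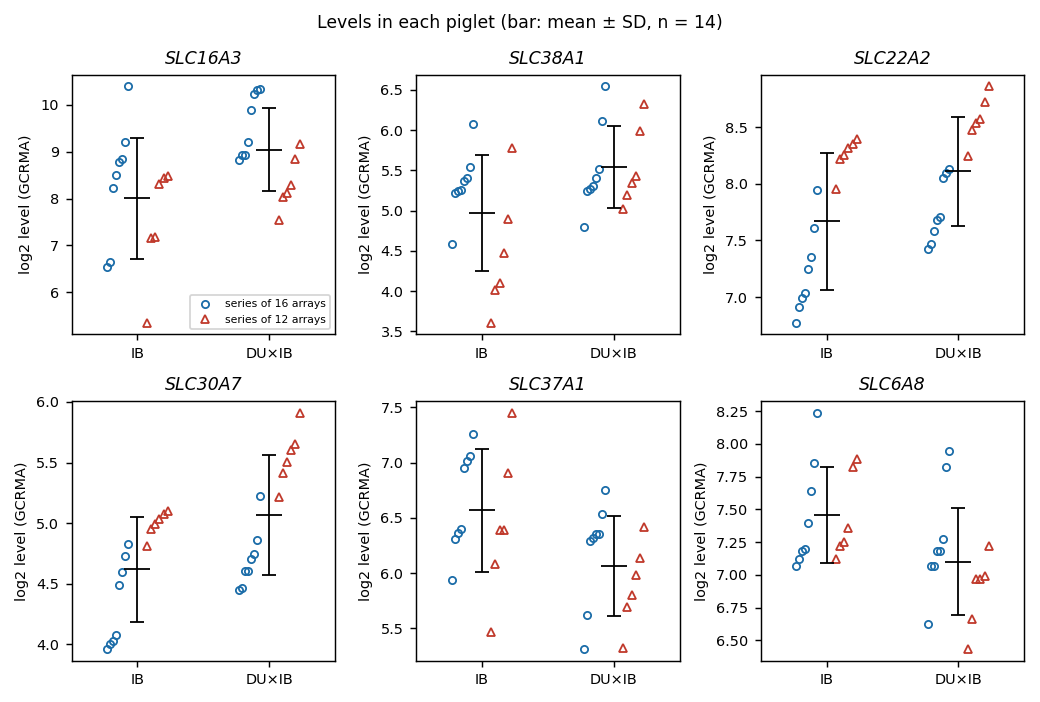
Log2 level of 6 solute carriers in each piglet by genetic type, with circles for the series of 16 arrays, triangles for the series of 12 and bars for the mean ± SD of 14 piglets. For SLC30A7 the triangles of IB and DU×IB do not overlap, and all other panels show overlap in both series.

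Metal ion carriers gave 7 probe sets of 5 genes, 5 higher and 2 lower in DU×IB, with a median of 0.12. SLC30A7 (ZnT7) moves zinc from the cytosol into the Golgi, and it was the solute carrier of lowest p with the series as a block. In the series of 16 its lowest, median and highest levels were 3.96, 4.28 and 4.83 in IB and 4.45, 4.66 and 5.22 in DU×IB. In the series of 12 they were 4.81, 5.01 and 5.10 in IB and 5.22, 5.56 and 5.91 in DU×IB. All 6 DU×IB piglets of the latter series stood above all 6 IB piglets. In that series the genetic types did not overlap, in either direction, for 1 of the 41 solute carriers and for 2.43% of all probe sets. In the series of 16 no solute carrier was without overlap in either direction, against 0.0765% of all probe sets.

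The SLC30A7 difference was 0.45 (1.36-fold), 0.37 in the series of 16 and 0.56 in the series of 12. Over all piglets the mean was 4.62 ± 0.431 in IB and 5.07 ± 0.492 in DU×IB. The adjusted p in limma was 0.458 without covariate (SE 0.19), 0.0423 with the block (SE 0.12) and 0.0827 in the series of 12 alone, where 4.38% of all probe sets passed. With the block it passed in all 28 fits that leave out a piglet (adjusted p 0.0218 to 0.0845) and without IB piglets 1 and 3 (0.0156), but not when the block was joined to median centring of the arrays (0.150).

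SLC41A1, a magnesium transporter of the plasma membrane, had lowest, median and highest levels of 6.38, 6.90 and 8.11 in IB and 6.45, 7.59 and 8.73 in DU×IB by its brighter probe set. Of the 14 DU×IB piglets, 13 were above the IB median. The difference of 0.48 (SE 0.22) did not pass (limma adjusted p = 0.541, and 0.125 with the block), except with the block when IB piglet 2 (0.0789) or DU×IB piglet 12 (0.0815) was left out. Its other probe set differed by 0.11 (SE 0.20).

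The zinc carrier SLC30A5, which loads the early secretory pathway, differed by 0.29 and 0.12. Without IB piglet 3 these were 0.06 and -0.046, and without IB piglets 1 and 3 they were 0.05 and -0.11. SLC30A9, a zinc carrier of mitochondria, had a difference of -0.27 (SE 0.28), which was -0.45 without IB piglet 3 and -0.52 without IB piglets 1 and 3 (-0.45 with the block as well, limma adjusted p = 0.107). SLC31A2, which acts on copper in endosomes and lysosomes, had a difference of -0.53 (SE 0.31), with 12 of 14 DU×IB piglets below the IB median and 1 of the 14 at 6.86, above the highest IB piglet at 6.69. None of these 3 genes passed the threshold in either fit.

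Among genes that handle zinc, iron or copper outside the SLC family, 6 of the 21 listed were measured, 1 higher and 5 lower in DU×IB, and none passed in either fit. HMOX1, the haem oxygenase, had the largest absolute difference of them, at -0.99 (SE 0.48, limma adjusted p = 0.585). Its spread was wide in IB, at 6.05 ± 1.89 against 5.05 ± 0.618 in DU×IB (mean ± SD). FTL, the ferritin light chain, was at -0.36 (SE 0.19).

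Of the amino acid and creatine transporters, 3 probe sets were higher and 3 lower in DU×IB, and none passed. SLC38A1 (SNAT1) takes up glutamine and other small neutral amino acids with sodium. Its lowest, median and highest levels were 3.61, 5.23 and 6.08 in IB and 4.80, 5.37 and 6.54 in DU×IB. The gap lay at the low end, where 5 IB piglets fell under every DU×IB piglet. The mean was 4.97 ± 0.717 in IB and 5.54 ± 0.509 in DU×IB, a difference of 0.57 (SE 0.24, 1.48-fold, limma adjusted p = 0.440, and 0.208 with the block). It was 0.19 in the series of 16 and 1.08 in the series of 12.

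SLC6A8 imports creatine, from which muscle makes its phosphocreatine store. It had lowest, median and highest levels of 7.07, 7.30 and 8.24 in IB and 6.43, 7.07 and 7.95 in DU×IB. Most DU×IB piglets, 12 of 14, lay below the IB median, although the ranges overlapped. The difference was -0.35 (SE 0.17), with a limma adjusted p of 0.585 without covariate and 0.281 with the block.

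SLC7A1 (CAT1), the carrier of arginine and lysine, differed by 0.22 (SE 0.21). SLC3A2, the heavy chain that anchors several amino acid exchangers in the membrane, differed by -0.09 (SE 0.17). SLC3A1, the heavy chain of the cystine and dibasic amino acid exchanger, was the only one of 8 genes with several probe sets whose probe sets pointed in opposite directions, at -0.26 (SE 0.24, and -0.43 without IB piglets 1 and 3) and, by a dim probe set with a mean of 3.28 in IB, 0.15 (SE 0.28). The median of the group was 0.03, and it was negative in each series alone and after quantile normalization.

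Around these carriers, 11 of 35 listed genes of amino acid sensing and of the ATF4 response were measured by 12 probe sets, 5 higher and 7 lower in DU×IB. None passed. ASNS, asparagine synthetase, was at 8.95 ± 1.41 in IB and 9.99 ± 0.935 in DU×IB, and ATF4, the transcription factor of the response, at 13.6 ± 0.428 and 13.2 ± 0.525. Their differences were 1.05 (limma adjusted p = 0.401) and -0.44 (limma adjusted p = 0.503).

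Sugar transporters gave 3 probe sets higher and 3 lower in DU×IB, all with the same sign in both series. SLC37A1, an antiporter of glucose 6-phosphate and phosphate in the endoplasmic reticulum, had lowest, median and highest levels of 5.47, 6.39 and 7.45 in IB and 5.31, 6.21 and 6.75 in DU×IB. The DU×IB values took the lower part of the IB range and reached below it, with 11 of 14 below the IB median. The difference was -0.50 (SE 0.20, 1.42-fold), at -0.47 and -0.55 in the series of 16 and of 12. It did not pass in limma (adjusted p = 0.406 without covariate, 0.184 with the block), except with the block when IB piglet 14 was left out (0.0935).

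SLC37A4, the glucose 6-phosphate carrier that supplies glucose-6-phosphatase, lay on the other side. Its probe sets differed by 0.54 (SE 0.29) and 0.40 (SE 0.28), and neither passed. Within each series they followed each other across piglets, with r = 0.975 (rho = 0.871, permutation p = 1e-05, the smallest that 100000 permutations can give) over 16 arrays and r = 0.902 (rho = 0.937, p = 7e-05) over 12. The adjusted permutation p was 0.000200 and 0.000700, and without the 2 piglets farthest from the median r was 0.870 and 0.937. The SD among IB piglets was 1.07 and 1.04, against 0.353 and 0.388 among DU×IB piglets. A larger SD in IB was found for 28 of the 41 solute carriers and for 80.1% of all probe sets. The differences were 0.33 and 0.20 without IB piglet 1, and 0.36 and 0.21 without IB piglets 1 and 3.

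The glucose transporters SLC2A1 (GLUT1), SLC2A3 (GLUT3) and SLC2A12 (GLUT12) differed by 0.19 (SE 0.23), -0.10 (SE 0.30) and -0.17 (SE 0.20). None of these differences exceeded the spread between piglets. SLC2A3 turned to 0.07 without IB piglet 1, and SLC2A1 was at 0.30 without IB piglets 1 and 3. SLC2A4 (GLUT4), the insulin-regulated transporter of muscle, was not analysed here.

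Of 28 listed genes that insert glucose transporters into the membrane or regulate this step, 8 were measured by 9 probe sets. Of these 6 were higher and 3 lower in DU×IB, and only SORT1 passed. SORT1 (sortilin) builds the vesicles that store GLUT4 and belongs to the study's list. It rose in DU×IB in both of its probe sets, from 6.61 ± 0.429 to 7.53 ± 0.335 and from 7.48 ± 0.345 to 8.14 ± 0.337 (SD, n = 14 each), differences of 0.92 (limma adjusted p = 0.00256) and 0.66 (limma adjusted p = 0.0374). PRKAA2, a catalytic subunit of AMP-activated kinase, was next by p, at 0.39 (SE 0.20). STXBP3, also in the study's list, was lower in DU×IB, at -0.36 (SE 0.22, limma adjusted p = 0.768).

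The mitochondrial SLC25 carriers gave 7 probe sets of 7 genes, 5 higher and 2 lower in DU×IB, with a median of 0.08 that was -0.11 in the series of 16. None passed in either fit. SLC25A24, the calcium-regulated carrier that exchanges ATP-magnesium for phosphate, had lowest, median and highest levels of 5.93, 8.84 and 9.73 in IB and 7.67, 9.20 and 9.96 in DU×IB. The groups overlapped, with IB piglet 3 far below the rest. The difference was 0.55 (SE 0.30, limma adjusted p = 0.667, and 0.315 with the block), and it was 0.34 without IB piglet 3 and 0.25 without IB piglets 1 and 3.

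SLC25A36 and SLC25A33, carriers of pyrimidine nucleotides, differed by -0.43 (SE 0.39, a dim probe set) and 0.25 (SE 0.33). SLC25A46, an outer membrane protein of mitochondrial dynamics, differed by 0.14 (a dim probe set) and SLC25A30 by 0.08. SLC25A1, which exports citrate, and SLC25A21, which carries oxodicarboxylates, differed by 0.02 and -0.12 over all piglets and had opposite signs in the series, as given below.

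All 9 probe sets of the group of nucleotide sugar, choline and vitamin carriers (5 genes) were lower in DU×IB, between -0.03 and -0.31, with a median of -0.18, and none passed even at an unadjusted p of 0.05. Over all probe sets 52.5% were higher in DU×IB. Only 6 of the 9 were lower in both series, and several probe sets belong to the same gene, so the 9 are not separate observations. SLC35A3, which brings UDP-N-acetylglucosamine into the Golgi, differed by -0.28 (SE 0.34) and SLC35B3, which brings in the sulfate donor PAPS, by -0.20 (SE 0.34). SLC35F5, of unknown cargo, differed by -0.11 and -0.22 in its probe sets. Without IB piglets 1 and 3 the values were -0.43 for SLC35A3, -0.31 for SLC35B3 and -0.25 and -0.40 for SLC35F5.

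SLC44A2, a choline transporter-like protein, differed by -0.03 and -0.12. SLC23A3, a relative of the vitamin C transporters, differed by -0.31 (SE 0.27), -0.18 and -0.16 in its 3 probe sets, for which no correlation across piglets passed (r between -0.076 and 0.383 in the series, adjusted permutation p 0.238 to 0.927). Of the 20 correlations r between probe sets of one gene within a series, 18 were positive and 9 had a Benjamini-Hochberg adjusted p under 0.05 (permutation test). Of these 9, SLC33A1 and SLC41A1 in the series of 16 did not pass by rank (adjusted permutation p of rho 0.171 and 0.0617). SLC44A2 in the series of 12, not among the 9, had r = 0.409 but rho = -0.098. The anion exchanger SLC26A6 was the only member for inorganic ions and differed by -0.22 (SE 0.28), at 0.03 in the series of 16 and -0.55 in the series of 12.

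The difference between genetic types was also set against the hybridization series. It had the same sign in both series for 28 of the 41 solute carriers (68.3%, against 55.6% of all probe sets). The interaction of genetic type and series was called for none of the 5226 probe sets (0.0%). An unadjusted p under 0.05 for it was reached by 5 of the 41 (12.2%), against 6.37% of all. SLC7A1 differed by -0.16 in the series of 16 and by 0.71 in the series of 12, SLC25A21 by -0.60 and 0.52, and SLC25A1 by -0.27 and 0.42. SLC38A1 and the dim probe set of SLC35F5 were the other two. Adjusted p for these 5 lay at 0.714 or above in limma, so no solute carrier was shown to differ between the series in its difference between genetic types.

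**Figure D3:**
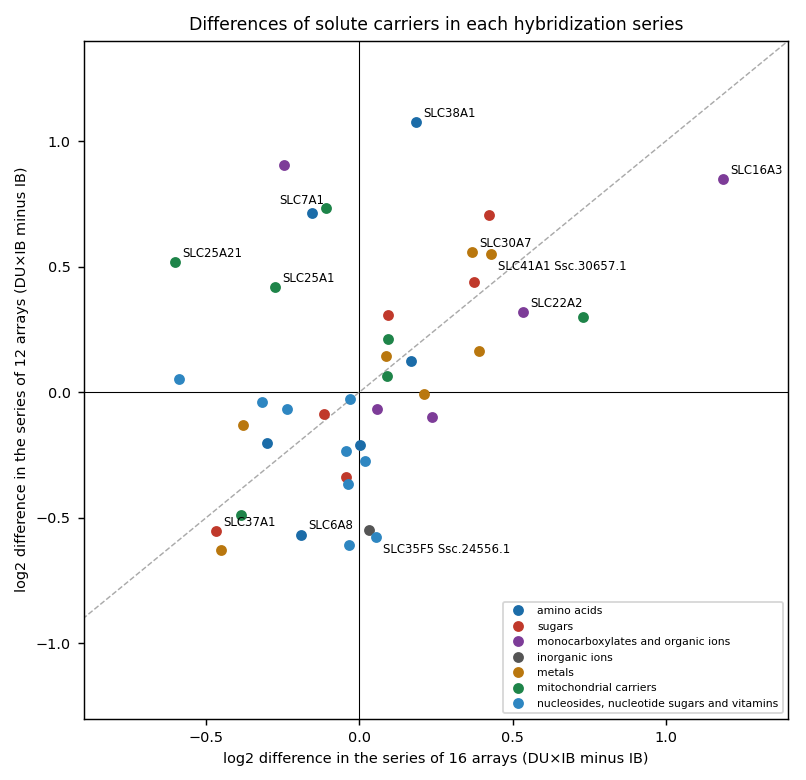
Log2 difference (DU×IB minus IB) of each of the 41 solute carrier probe sets in the series of 16 arrays (x axis) and in the series of 12 (y axis), coloured by substrate group, with the line of equal differences dashed. Names are given for an unadjusted p under 0.05 for genetic type or for the interaction, and 28 of the 41 points lie in the quadrants of equal sign.

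The series itself separated more of the family than the genetic type did. Of the 41 probe sets, 31 differed between series at an adjusted p under 0.10 (75.6%, against 80.1% of all), 14 higher in the series of 16 and 17 in the series of 12. The ends were SLC16A3 at 1.08 and the dim probe set of SLC35F5 at -2.12 (series of 16 minus series of 12). Age, sex and the balance of genetic types were shared by the series, and other ways in which its piglets may differ cannot be told apart from the hybridization.

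**Figure D4:**
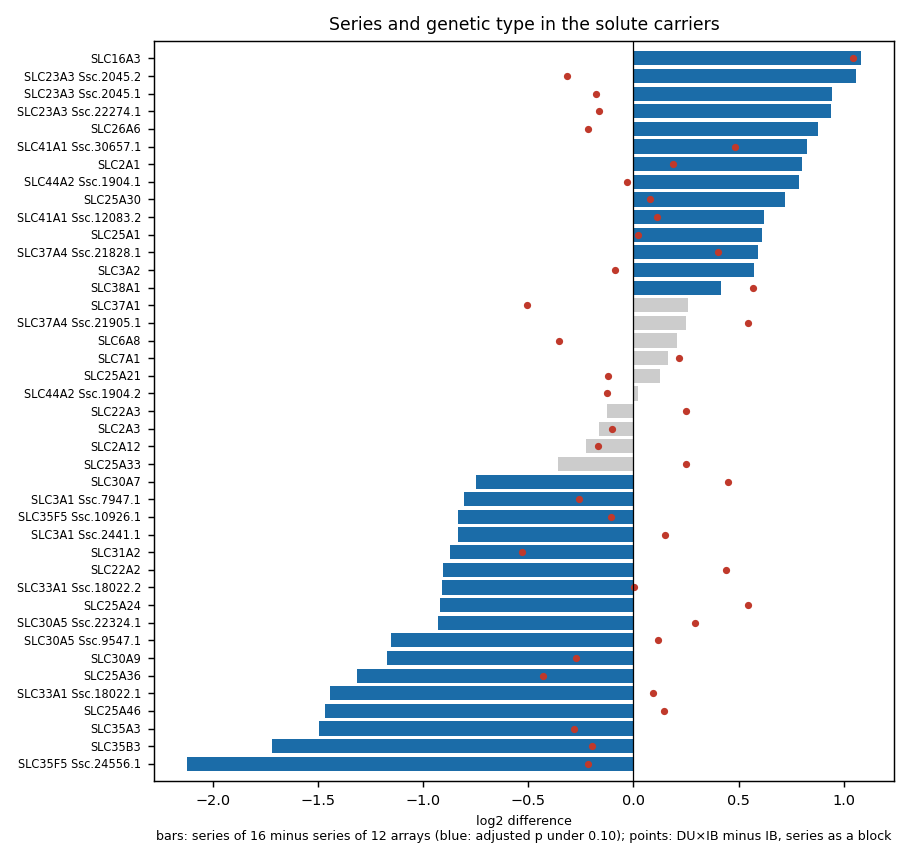
Log2 difference between the hybridization series (bars, series of 16 minus series of 12, blue at an adjusted p under 0.10) and between the genetic types (points, DU×IB minus IB with the series as a block) for the 41 solute carrier probe sets. The bars reach from -2.12 to 1.08, and 31 are blue.

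Pumps, ABC transporters, aquaporins and channels were taken for comparison. Of the 73 listed genes 11 were measured by 13 probe sets, 7 higher and 6 lower in DU×IB, and only ABCG2 passed, with the block alone. ABCG2, an exporter of urate and xenobiotics from the study's list, rose from 7.34 ± 0.460 in IB to 7.96 ± 0.443 in DU×IB (difference 0.63, limma adjusted p = 0.163, and 0.0614 with the block). Next by p was ATP6V1D, a subunit of the proton pump of lysosomes, at -0.42 (SE 0.19). Of 16 partners and regulators of solute carriers 3 were measured, and none passed, with ARL6IP5 at 0.27 and PDZD11 at 0.16.

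Markers of other cells in the muscle moved as follows between the same piglets. The 10 probe sets of 8 macrophage genes (of 12 listed) were all lower in DU×IB, with a median difference of -0.42 and none passing. Their summed linear level ran from 777 to 6021 in IB and from 713 to 1208 in DU×IB. The upper end in IB was not typical, as their mean log2 level per piglet had a median of 5.60 in IB and 5.47 in DU×IB. The tendon genes KERA and FMOD (of 8 listed), both in the study's list, rose by 1.93 each (limma adjusted p = 0.00529 and 0.00858), and their sum ran from 91.1 to 1557 in IB and from 485 to 3948 in DU×IB. COL1A1, the only one of 7 fibroblast genes measured, also in that list, was higher by 1.21 (limma adjusted p = 0.187, and 0.0270 with the block), between 121 and 2340 in IB and between 723 and 5131 in DU×IB.

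None of the markers of the other cell types passed in either fit. Adipocyte genes (2 of 9 listed) were at -0.44 for CFD and 0.37 for FABP4, with sums from 1949 to 8039 in IB and from 2934 to 6326 in DU×IB. Endothelium (5 of 7) had 8 probe sets, 5 higher and 3 lower in DU×IB. Its median was 0.19 over all piglets, -0.22 in the series of 16 and 0.55 in the series of 12. Its sums ran from 1572 to 5544 in IB and from 1963 to 4937 in DU×IB. Erythroid genes (2 of 7) had a median of 0.06 and sums from 66.5 to 634 and from 137 to 545, and nerve (1 of 7, MBP) a median of -0.02 and sums from 123 to 318 and from 112 to 303. No listed marker was at 0, as GCRMA values have none. The part of these cells in the values of the solute carriers was not tested.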

How the data were processed

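RNA from the loin muscle of 28 piglets was hybridized to one Affymetrix porcine array each. The authors processed the scans with GCOS and deposited log2 values made by GCRMA in BRB-ArrayTools for the 5226 probe sets kept by their variation filter. Values run from 1.44 to 15.7. Array medians were 6.01 to 6.71 in the series of 16 and 6.87 to 7.05 in the series of 12. Precision is limited by how many arrays there are.

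Symbols came from the study's gene tables and otherwise from the annotation of the array, under which 2660 probe sets have a name. The genetic types were tested against each other in limma (eBayes after lmFit, two-sided, no covariate, Benjamini-Hochberg over all probe sets, threshold 0.10). The study's model held the hybridization series. It is not in the labels, so it was read from 10 spike-in probe sets (mean level 8.93 to 9.68 in the series of 16 and 6.19 to 7.01 in the series of 12) and used as a block, within each series, and in an interaction. Probe sets of one gene were correlated within each series (100000 permutations, seed 1). Dim means a mean under 4 in both genetic types.

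Members and gene lists were chosen with earlier results of these data known. Every member was counted. Named were members past the threshold or in the study's list, the 15 of lowest p, the lowest p in each direction of each group, genes with several probe sets, members with opposite signs or an interaction between series and, per list, those past the threshold and up to 2 of lowest p. Other members were named after their values were seen, to account for every gene. STXBP3 was also named after its values were seen, as it is in the study's list. Alternatives were median centring, quantile normalization, a prior with trend and robust estimation, arrays weighted by quality, dim probe sets left out, platform names alone, 1 probe set per gene, a threshold of 0.05, the piglet number as a block, and each piglet left out. Added after seeing the data were the block with median centring, the block with each piglet left out, the probe set of several genes counted too, other settings of the interaction, and IB piglets 1 and 3 left out. No sequence was at hand for the probe sets. The fits were also run on simulated arrays, which had independent noise and no litters. Software was limma 3.58.1 in R 4.3.3, and scipy 1.17.1, pandas 2.3.3, numpy 2.4.6 and, for drawing, matplotlib 3.10.9 in Python 3.11.15.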

Additional observations from a re-analysis of the deposited data

How the results depend on the processing

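The number of solute carriers past the threshold, 0 without covariate, was 2 with the hybridization series as a block (SLC30A7 and SLC22A2), 1 in the series of 12 alone (SLC30A7), 1 with the block and median centring (SLC22A2), 1 with the block and without IB piglets 1 and 3 (SLC30A7), and 0 under every other setting run on all piglets or the series of 16 and in each of the 28 fits without covariate that left out a piglet. With the piglet number as a replicate block it was also 2, but same-numbered piglets correlated at 0.0236 to 0.730 around their genetic type and at -0.326 to 0.538 around it within their series, where 2 of 14 pairs were over 0.1, so the piglets share only a number, and piglets 1 to 8 are one series. Over all probe sets the count of 52 became 145 with either block, 122 with the block and median centring, 132 with the block and without IB piglets 1 and 3, 96 with array weights, 9 in the series of 16, 229 in the series of 12, 34 at an adjusted p under 0.05, and 34 without DU×IB piglet 7 or 35 without IB piglet 12 (34 to 66 over all left-out piglets).

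Differences whose sign turned were all of members past no threshold, and the cause was not tested. Without IB piglets 1 and 3 they were SLC25A46 (-0.0051), SLC2A3 (0.10, and 0.13 with the block), SLC30A5 (-0.11, and -0.033 with the block), SLC33A1 (-0.019 and -0.056) and SLC44A2 (0.023). After median centring, with or without the block, SLC25A1 was at -0.0073 and SLC33A1 at -0.025, and after quantile normalization at -0.043 and -0.055. With array weights SLC22A3 was at -0.27, SLC25A33 -0.26, SLC25A46 -0.0053, SLC2A3 0.19, SLC30A5 -0.041, SLC33A1 -0.039 and -0.046, SLC3A1 -0.037, the dimmer SLC41A1 probe set -0.015 and SLC7A1 -0.030. In the series of 12, SLC23A3 was at 0.051, SLC25A21 0.52, SLC30A5 -0.0064 and SLC33A1 -0.098 and -0.068. In the series of 16, SLC22A3 was at -0.25, SLC25A1 -0.27, SLC25A33 -0.11, SLC26A6 0.032, SLC35F5 0.018 and 0.053, SLC3A2 0.0023 and SLC7A1 -0.16. Over the fits that left out 1 piglet, with and without the block, the members whose sign turned ran from -0.073 to 0.088 (SLC25A1), -0.068 to 0.094 (the SLC33A1 probe set at 0.005 over all piglets), -0.031 to 0.19 (that at 0.09), -0.12 to 0.046 (SLC44A2), -0.017 to 0.16 (SLC25A30), -0.20 to 0.081 (SLC2A3) and -0.046 to 0.23 (SLC30A5). Group medians were taken with the block, in each series and after median centring with or without the block. They were also taken after quantile normalization, with dim probe sets left out and with 1 probe set per gene. Under these settings the medians of metal, organic ion and nucleotide sugar groups kept their sign. That of the sugar group turned to -0.011 with quantile normalization and -0.10 with 1 probe set per gene, and that of the amino acid group to -0.089 with dim probe sets left out. No group median was taken with piglets left out, or with array weights, under which several metal and organic ion members turned their sign. The number of piglets limits what could be seen, at a median 95% half-width of 0.51.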
